A study of Mus musculus with 21 samples.

Results

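The AP-1 transcription factor family was followed through 7 of its genes in mouse quadriceps muscle, namely Fos, Fosb and Fosl2 of the FOS group, Jun, Junb and Jund of the JUN group, and Atf3. The genes were taken by symbol from the deposited expression table, which lists 53738 gene symbols. Each symbol was found once, and all 7 members were among the 11819 genes whose mean over the libraries reached 1 TPM (a transcript level corrected for length and scaled to the same total in each library). The muscles came from adult male wild-type mice of the C57/Bl6 strain, 22 to 26 weeks old at sacrifice, in 7 groups of 3. Sedentary mice did no exercise. Untrained mice ran a bout on a treadmill until exhaustion, and trained mice did the same after 12 weeks of voluntary wheel running. The exercised mice were sacrificed 0 h, 6 h or 72 h after the bout. No group was trained without the bout, so trained muscle against sedentary muscle combines the training with the bout. Wheel running was voluntary and the bout ended at the exhaustion of each mouse, so neither the amount of training nor the length of the bout was equal by design. The comparisons address how the expression of these factors after acute exercise depends on time and on the training state.

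Replicate 1 of untrained 0 h held the same values as replicate 1 of trained 0 h for all 53738 symbols. The table therefore holds 20 distinct libraries in 21 columns, and the 0 h fold changes and counts of the members are given with this library in both groups and without it in either. The table holds no read counts, and sequencing depth is therefore unknown. No label says whether the libraries of a group came from separate mice, so p-values measure the spread between these libraries. Summed TPM of 9 muscle fibre markers lay between 88832 and 118146 in every library, while the 5 neutrophil markers summed to at most 1.92 TPM. Because whole muscle was sequenced, fewer cells of a type and less RNA per cell cannot be told apart.

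AP-1 proteins bind DNA as pairs that are held together by a leucine zipper. JUN proteins can pair with each other or with FOS proteins, whereas FOS proteins need a JUN partner, and ATF3 can pair with JUN proteins or with itself and often represses its targets. Most family members are immediate early genes: calcium, MAP kinase and stress signals switch them on within minutes without new protein synthesis, and their short-lived mRNAs disappear soon after the signal ends. In muscle they are known to respond to contraction, stretch and injury.

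The genes lie on 6 chromosomes of the GRCm39 genome build. Fos (ENSMUSG00000021250) is at chr12:85520658-85524047 on the plus strand, Fosb (ENSMUSG00000003545) at chr7:19036621-19043976 on the minus strand, and Fosl2 (ENSMUSG00000029135) at chr5:32292707-32315186 on the plus strand. Jun (ENSMUSG00000052684) is at chr4:94937271-94940459 on the minus strand and has a single exon, as do Junb (ENSMUSG00000052837, chr8:85701113-85705359, minus strand) and Jund (ENSMUSG00000071076, chr8:71151599-71153265, plus strand). Atf3 (ENSMUSG00000026628) is at chr1:190902493-190950241 on the minus strand, and its canonical transcript has 4 exons. Genes on the opposite strand overlap 5 members, among them the long noncoding RNA Junos across the whole of Jun, Gm11175 over 919 bases of Jund, and the protein-coding Prdx2 over 1238 bases of Junb. The library kit does not mark the strand, so reads of these overlapping stretches cannot be told apart.

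The 250 bases before the canonical transcript start were read from GRCm39 for each member, since all 7 genes rose together at 0 h. Each motif was searched on both strands in these windows and in those of 21770 protein-coding genes. Capitals mark TATAAA (in 11.9% of all windows), TGACGT, a core of the cAMP response element (6.49%), its full form TGACGTCA, which contains it (1.695%), and the related JUN-type site TGACATCA (2.61%). The windows of Fos, Jun and Jund are shown because each carries a different one of these sites.
Fos, chr12:85520408-85520657, plus strand: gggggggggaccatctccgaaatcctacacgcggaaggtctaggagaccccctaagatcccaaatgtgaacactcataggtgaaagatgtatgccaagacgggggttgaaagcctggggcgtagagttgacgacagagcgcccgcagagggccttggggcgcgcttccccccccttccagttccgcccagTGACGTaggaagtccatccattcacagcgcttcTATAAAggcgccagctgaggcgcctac
Jun, chr4:94940460-94940709, minus strand: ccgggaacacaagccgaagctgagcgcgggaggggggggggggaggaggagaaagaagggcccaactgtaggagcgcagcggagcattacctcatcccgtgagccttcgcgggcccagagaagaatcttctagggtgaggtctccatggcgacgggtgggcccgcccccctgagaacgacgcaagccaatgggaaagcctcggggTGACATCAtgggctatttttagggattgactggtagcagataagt
Jund, chr8:71151349-71151598, plus strand: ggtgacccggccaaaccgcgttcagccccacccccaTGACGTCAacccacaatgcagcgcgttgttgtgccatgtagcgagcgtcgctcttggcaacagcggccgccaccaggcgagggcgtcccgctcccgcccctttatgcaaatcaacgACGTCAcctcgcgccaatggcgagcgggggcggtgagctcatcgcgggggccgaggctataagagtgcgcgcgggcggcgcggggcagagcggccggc
The TGACGT of Fos began 60 bases before the start and its TATAAA 27 bases before, the TGACATCA of Jun 45 bases before, and the TGACGTCA of Jund 214 bases before. Junb carried a TATAAA 30 bases before its start. The windows of Fosb, Fosl2 and Atf3 held none of these words. None of the 7 windows held TGANTCA (6.17% of all windows) or the SRF-bound CArG box (1.396%). Sites further than 250 bases before the start were not searched, so such sites may lie there.

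The 3′ untranslated ends of the canonical transcripts were searched for ATTTA, the core of AU-rich elements that are known to shorten mRNA half-life. It occurred in all 7 members and in 68.0% of 20672 protein-coding transcripts. Fos had 4 copies in 815 bases, a density reached by 7.42% of transcripts, whereas Fosb had 1 copy in 2145 bases, a density reached by 65.9%. Atf3 had 3 copies in 1186 bases, a density reached by 27.4%. The densities of the other members lay between those of Fos and Fosb, from 11.3% (Junb) to 41.4% (Fosl2). A link of these copies to the time courses was not tested. Fos also shows overlapping copies. The 30 bases with the most copies are given for Fos and for Atf3, with ATTTA in capitals. Atf3 had its highest mean at 6 h in untrained muscle, but fell from 0 h to 6 h in trained muscle.
Fos, chr12:85523864-85523893, plus strand: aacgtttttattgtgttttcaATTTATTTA
Atf3, chr1:190903451-190903480, minus strand: catcctttgtctcaccaattccaggATTTA

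In sedentary muscle the JUN group made up most of the AP-1 mRNA. The 7 members summed to 21.5 ± 4.87 TPM (SD, n = 3), of which the JUN group held 84.5% ± 6.57, the FOS group 11.4% ± 7.25 and Atf3 4.05% ± 1.08. Jun, whose protein is the strongest activator of the JUN group, was listed highest at 8.78 ± 1.48 TPM, followed by Jund at 5.62 ± 1.20 TPM and Junb at 3.58 ± 0.255 TPM. The antisense Gm11175 over 919 bases of Jund was listed at 14.3 to 19.6 TPM, and reads of that stretch cannot be told apart. The rank of Jund, and all sums, shares and ratios with the JUN group here and below, therefore hold only for TPM as listed. Fosb was near the lower limit of the table at 0.0952 ± 0.0811 TPM. Sedentary replicate 3 was the highest of its group for 5 of 7 members (Fos, Fosb, Fosl2, Jun and Jund). Fos reached 3.44 TPM there, against 0.320 and 0.588 TPM in the other sedentary libraries.

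All 7 members were higher at 0 h than in sedentary muscle in both training states. In untrained muscle 7 of 7 members were called higher than in sedentary muscle, against 3.59% of all tested genes called in either direction, where called means an adjusted p below 0.05 and at least a 1.5-fold change in limma. Without the shared library all 7 were still called, against 2.95% of genes. In trained muscle 7 of 7 were called as well, against 3.74% of genes, and 7 of 7 without the shared library, against 3.27%. The median log2 fold change over the members was 3.24 in untrained and 3.56 in trained muscle, while over all tested genes it was 0.10 and 0.13. Fold changes are differences of log2(TPM + 0.5), so they understate the change of a gene with low values.

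**Figure D1:**
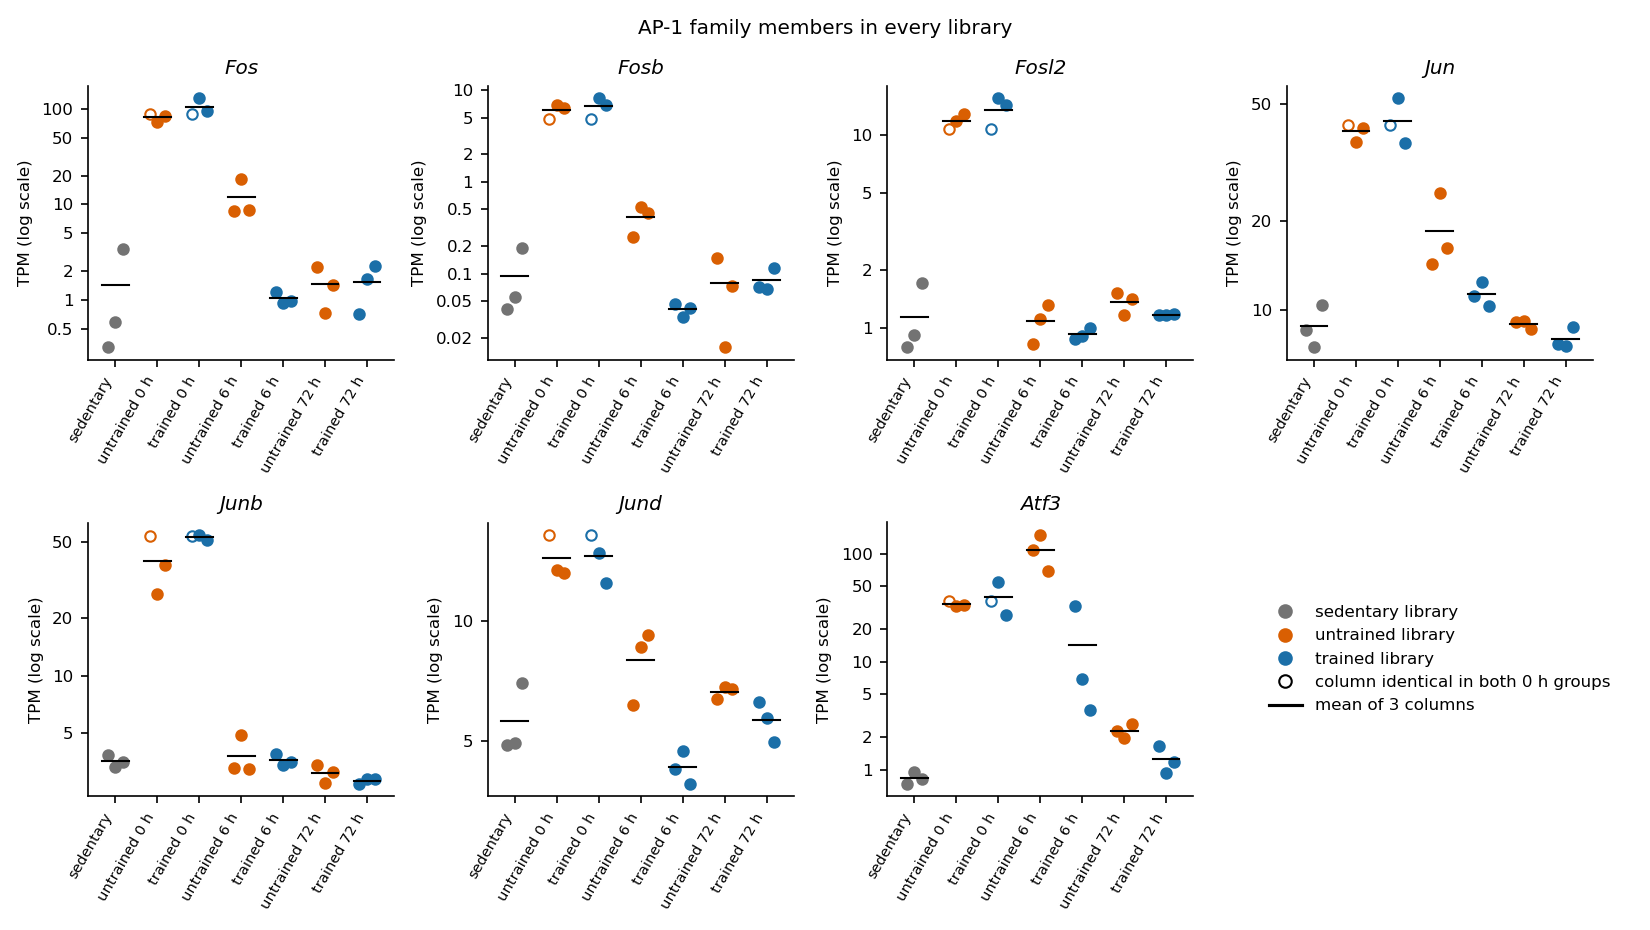
Level of each AP-1 member in every library, in TPM on a log scale, with points for libraries (open where the same values stand in both 0 h groups) and lines for the mean of the 3 columns of a group. All 0 h points lie above all sedentary points for each gene, and Atf3 is the one gene whose highest mean is at 6 h, in untrained muscle.

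Fos, the FOS-group member that defines the immediate early response, had the largest fitted rise. Its level was 88.9 (shared), 72.5 and 84.1 TPM in untrained muscle, and 88.9 (shared), 128 and 95.02 TPM in muscle of trained mice at 0 h. Every 0 h library was far above the highest sedentary library, which had 3.44 TPM, and the trained and untrained libraries met only at the shared one. The log2 fold change was 5.75 ± 0.47 (SE) in untrained (adjusted p = 1.02e-06, limma) and 6.09 ± 0.47 in trained muscle (adjusted p = 4.35e-07), or 5.69 and 6.19 without the shared library.

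Fosb, which also encodes the stable truncated form known as ΔFosB, had 4.87 (shared), 6.80 and 6.31 TPM in untrained muscle, and 4.87 (shared), 8.11 and 6.92 TPM in muscle of trained mice at 0 h. The ratio of mean TPM to sedentary muscle was 62.9 in untrained and 69.7 in trained muscle, against 56.5 and 71.8 for Fos. By this ratio Fosb rose more than Fos in untrained muscle. Without the shared library the ratios were 68.8 and 78.9 for Fosb, against 54.0 and 77.1 for Fos. The fitted log2 fold changes of Fosb, 3.44 ± 0.18 and 3.56 ± 0.18, correspond to smaller folds than its ratios, because sedentary Fosb lay below the added 0.5 TPM. Without the shared library these log2 fold changes were 3.57 and 3.76. Fosl2, which encodes the FOS-related protein FRA-2, rose from 0.798, 0.922 and 1.71 TPM to 10.7 (shared), 11.8 and 12.7 TPM in untrained muscle, and 10.7 (shared), 15.4 and 14.2 TPM in muscle of trained mice. Its log2 fold changes were 2.94 ± 0.17 and 3.11 ± 0.17, or 3.00 and 3.26 without the shared library.

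Among the JUN group, Junb rose most. JUNB is known as a weaker activator than JUN and, in muscle, as a factor that maintains fibre size. Its level was 3.84, 3.33 and 3.55 TPM in sedentary muscle, 54.1 (shared), 26.8 and 38.0 TPM in untrained muscle, and 54.1 (shared), 54.5 and 51.3 TPM in trained muscle. The log2 fold change was 3.24 ± 0.18 in untrained muscle, or 2.99 ± 0.15 without the shared library, and 3.72 ± 0.18 in trained muscle, or 3.71 ± 0.15.

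Jun rose from 8.50, 7.46 and 10.4 TPM to 42.4 (shared), 37.3 and 41.6 TPM in untrained muscle, and 42.4 (shared), 52.3 and 36.8 TPM in muscle of trained mice, with log2 fold changes of 2.15 ± 0.17 and 2.25 ± 0.17, or 2.11 and 2.27 without the shared library. Jund, known for its high basal expression and its restraint of proliferation, rose least, from 4.90, 4.95 and 7.01 TPM to 16.4 (shared), 13.4 and 13.2 TPM and to 16.4 (shared), 14.8 and 12.5 TPM. Its log2 fold changes were 1.29 ± 0.15 and 1.31 ± 0.15, or 1.19 and 1.22 without the shared library. The antisense transcript Gm11175 inside Jund was listed at 14.3 to 19.6 TPM in sedentary muscle, above Jund itself, and its log2 fold changes at 0 h were 1.24 and 1.27.

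Atf3, a stress-induced member that is also a target of ATF4, rose from 0.744, 0.948 and 0.829 TPM to 36.3 (shared), 32.4 and 33.2 TPM in untrained muscle, and 36.3 (shared), 55.0 and 27.0 TPM in muscle of trained mice. Its log2 fold change was 4.69 ± 0.51 in untrained (adjusted p = 1.82e-05, limma) and 4.84 ± 0.51 in trained muscle (adjusted p = 1.25e-05), or 4.64 and 4.87 without the shared library. The ratio of mean TPM to sedentary muscle was 40.4 and 46.9.

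**Figure D2:**
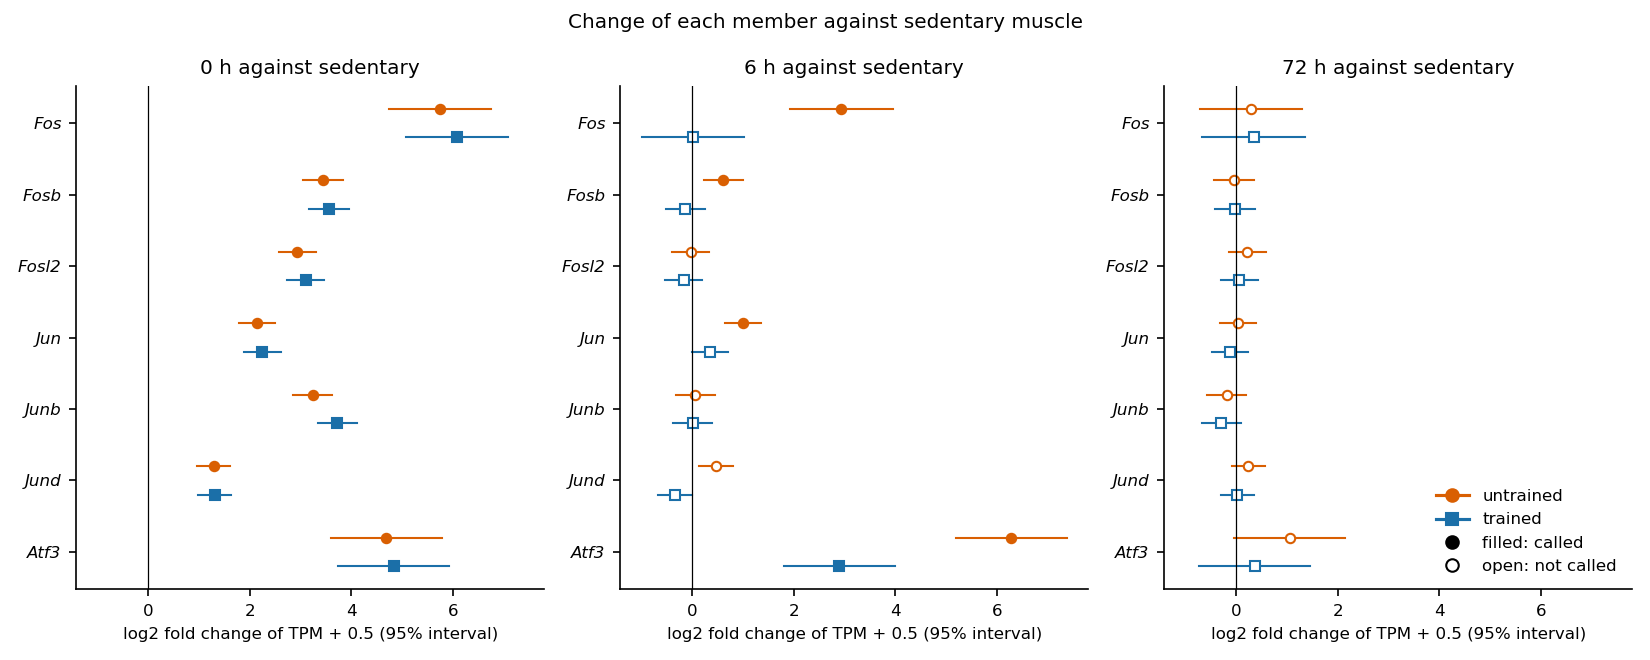
Log2 fold change of TPM + 0.5 against sedentary muscle for each member at every time point, with 95% intervals, circles for untrained and squares for trained muscle, filled where called. All 14 symbols are filled at 0 h, Fos, Fosb, Jun and Atf3 in untrained and Atf3 in trained muscle are filled at 6 h, and 0 are filled at 72 h.

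The makeup of the AP-1 mRNA shifted with this rise. The 7 members summed to 228 ± 26.3 TPM in untrained muscle, and 275 ± 46.4 TPM in muscle of trained mice at 0 h (n = 3, shared library included). The FOS group then held 43.8% ± 2.32 and 45.0% ± 3.40, the JUN group 41.2% ± 3.04 and 40.9% ± 3.76, and Atf3 15.0% ± 0.996 and 14.05% ± 2.84. The ratio of FOS to JUN group TPM went from 0.141 ± 0.1003 in sedentary muscle to 1.07 ± 0.130 and 1.11 ± 0.167. Without the shared library this ratio was 1.14 in untrained and 1.20 in trained muscle, and the sums were 215 ± 19.7 TPM and 286 ± 59.95 TPM (n = 2).

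Trained and untrained muscle were not distinguished at 0 h. In limma 0 of 7 members were called, against 0% of all tested genes, and 0 of 7 without the shared library, against 0% again. Members with an unadjusted p below 0.05 numbered 1 of 7 with and 1 of 7 without the shared library, in each case Junb. Its difference (trained minus untrained) was 0.48 on the log2 scale (95% interval 0.10 to 0.86, adjusted p = 1), and 0.72 without the shared library (0.35 to 1.08, adjusted p = 0.706). Without the shared library each group had 2 libraries left, so a lack of overlap says little. The trained libraries then lay above the untrained ones for Fos, Fosb, Fosl2 and Junb and overlapped for Jun, Jund and Atf3. How many of all tested genes separated in this way was not counted. For Junb the libraries were at 26.8 and 38.0 TPM in untrained against 54.5 and 51.3 TPM in trained muscle. The interval for Fos ran from -0.68 to 1.34 and that for Atf3 from -0.94 to 1.24, so both intervals included 0 and were wide.

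At 6 h the family had split in untrained muscle. Of the 7 members, 4 were called higher than in sedentary muscle (Atf3, Fos, Jun and Fosb) and 0 lower, against 4.42% of all tested genes. The member median was 0.62 and that of all genes 0.01.

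Atf3 was at 109, 149 and 68.9 TPM in untrained muscle at 6 h, and each library was above every 0 h library of the series. The log2 fold change against sedentary muscle was 6.28 ± 0.51 (adjusted p = 9.05e-07, limma), a ratio of mean TPM of 129.6. From 0 h to 6 h untrained Atf3 went up by 1.60 ± 0.51 on the log2 scale, which was not called (adjusted p = 0.0558), although it passed under 4 alternatives (adjusted p 0.0471 to 0.0499). Without the shared library the same step was 1.65 ± 0.62 (adjusted p = 0.133).

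Fos was at 8.51, 18.5 and 8.77 TPM in untrained muscle at 6 h, and no library overlapped with the sedentary ones. Its log2 fold change against sedentary muscle was 2.94 ± 0.47 (adjusted p = 0.000801). Jun, with 14.3, 24.9 and 16.2 TPM, was 1.00 ± 0.17 above sedentary muscle (adjusted p = 0.00109). Fosb, with 0.253, 0.533 and 0.459 TPM, was 0.62 ± 0.18 above it (adjusted p = 0.0446), but the value became -0.053 with quantile normalization. Its call was also lost without sedentary replicate 1 (adjusted p = 0.136), sedentary replicate 2 (0.1125), untrained 6 h replicate 2 (0.154) or untrained 6 h replicate 3 (0.128).

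Junb and Fosl2 were back near the sedentary level. Junb had 3.30, 4.92 and 3.25 TPM and Fosl2 0.829, 1.12 and 1.31 TPM, with log2 fold changes of 0.07 (95% interval -0.32 to 0.45) and -0.02 (-0.39 to 0.34). Jund, with 6.15, 8.60 and 9.25 TPM, was 0.47 ± 0.15 above sedentary muscle and not called (adjusted p = 0.0667), but the call was made without sedentary replicate 3 (0.63, adjusted p = 0.0182) or without untrained 6 h replicate 1 (0.64, adjusted p = 0.00996).

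The summed AP-1 level was 153 ± 50.5 TPM in untrained muscle at 6 h. Atf3 alone held 70.7% ± 6.50 of it, the JUN group 20.6% ± 5.23 and the FOS group 8.74% ± 1.74. Untrained 6 h replicate 2 was the highest library of its group for 5 of 7 members (Fos, Fosb, Jun, Junb and Atf3).

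In trained muscle at 6 h, 1 of 7 members was called higher than in sedentary muscle, namely Atf3, against 3.85% of all tested genes. The member median log2 fold change was 0.01 and that of all genes -0.01. Atf3 had 32.5, 6.94 and 3.56 TPM, and each of these libraries was above the sedentary range although they differed widely from each other. Its log2 fold change was 2.90 ± 0.51 (adjusted p = 0.00191), and 2.04 without trained 6 h replicate 1 (adjusted p = 0.00184), the library with 32.5 TPM. Fos had 1.22, 0.938 and 0.968 TPM, a log2 fold change of 0.01 (95% interval -0.99 to 1.02). Jund had 4.27, 4.73 and 3.92 TPM, all below the lowest sedentary library, with a log2 fold change of -0.33 (-0.66 to -0.01) that was not called (adjusted p = 0.197). The 7 members summed to 53.9, 29.4 and 23.4 TPM.

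Between training states, members were called at 6 h alone among the time points. Trained muscle was lower for 5 of 7 members (Atf3, Fos, Jund, Fosb and Jun), against 2.01% of all tested genes called in either direction. The member median of trained minus untrained was -0.75 and that of all genes -0.04. Atf3 was lower by 3.38 ± 0.51 on the log2 scale (95% interval -4.48 to -2.29, adjusted p = 0.00118, limma), and the highest trained library, at 32.5 TPM, was below the lowest untrained one, at 68.9 TPM. Without trained 6 h replicate 1 the Atf3 difference was -4.25, and without trained 6 h replicate 3 it was -2.74 (adjusted p = 0.00478). Fos was lower by 2.93 ± 0.47 (adjusted p = 0.00181), with at most 1.22 TPM in trained and at least 8.51 TPM in untrained muscle. As a ratio of mean TPM, trained over untrained, Atf3 was at 0.132 and Fos at 0.0872.

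Jund was lower in trained muscle by 0.81 ± 0.15 (adjusted p = 0.00592), Fosb by 0.75 ± 0.18 (adjusted p = 0.0287) and Jun by 0.65 ± 0.17 (adjusted p = 0.0385). None of these 3 genes had overlapping libraries between the training states, and the share of all tested genes without overlap was not counted. The Fosb difference was -0.30 (adjusted p = 0.585) with quantile normalization and -0.44 (adjusted p = 0.0897) with a pseudocount of 1, and was then not called. The calls of Fosb and Jun were both lost when any of the 6 libraries except untrained 6 h replicate 1 was left out, with adjusted p up to 0.125 and 0.169, and that of Jun also when the shared 0 h library was left out of the model (adjusted p = 0.0542). Junb and Fosl2 differed by -0.05 (95% interval -0.43 to 0.33) and -0.14 (-0.50 to 0.22).

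**Figure D3:**
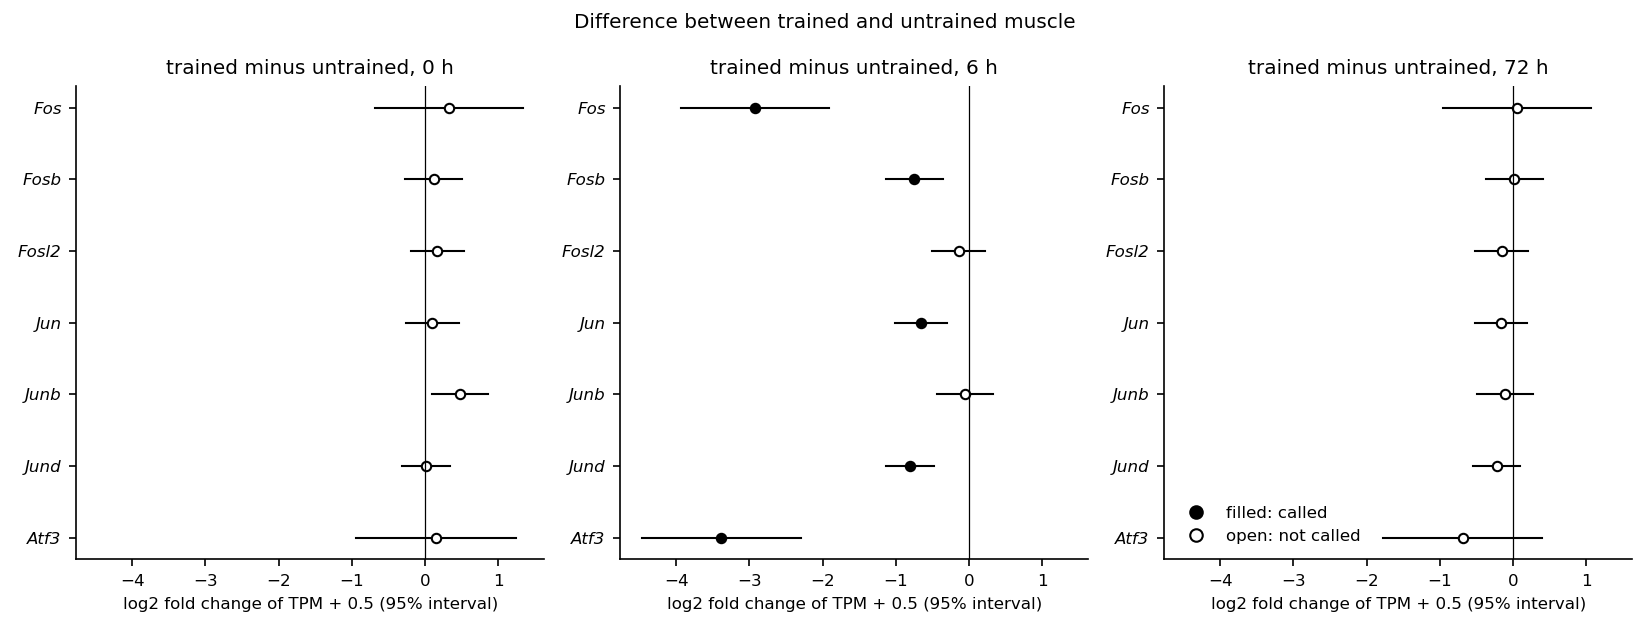
Difference between trained and untrained muscle at each time point, as log2 fold change of TPM + 0.5 with 95% intervals, filled where called. At 6 h 5 members lie left of 0 and are called, with Atf3 at -3.38 and Fos at -2.93, whereas Fosl2 and Junb lie near 0.

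From 0 h to 6 h trained muscle fell for 7 of 7 members, against 6.46% of genes called in either direction, and untrained muscle for 6 of 7, against 4.64%, and both counts were the same without the shared library. The exception was Atf3 in untrained muscle. The log2 change of Fos was -6.07 ± 0.47 in trained and -2.81 ± 0.47 in untrained muscle. In the same order it was -3.71 ± 0.18 and -3.18 ± 0.18 for Junb, -3.27 ± 0.17 and -2.96 ± 0.17 for Fosl2, and -3.69 ± 0.18 and -2.83 ± 0.18 for Fosb. It was -1.90 ± 0.17 and -1.15 ± 0.17 for Jun, and -1.64 ± 0.15 and -0.82 ± 0.15 for Jund. Trained Atf3 changed by -1.94 ± 0.51 (adjusted p = 0.0132), a call lost without trained 0 h replicate 2 (adjusted p = 0.0514), trained 6 h replicate 2 (0.0523) or trained 6 h replicate 3 (0.0608).

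The test of whether this step differed between training states called Atf3 (-3.54 ± 0.73, adjusted p = 0.0352) and Fos (-3.26 ± 0.67, adjusted p = 0.0354), 2 of 7 members against 0.651% of genes. With the shared library left out, 0 of 7 members were called, with log2 differences of -3.61 (adjusted p = 0.112) for Atf3 and -3.42 (adjusted p = 0.103) for Fos, while 6 of 7 members had an unadjusted p below 0.05. Leaving out single libraries of these 4 groups gave 0 to 3 called members. Neither gene was called without untrained 0 h replicate 1, 2 or 3, untrained 6 h replicate 2, trained 0 h replicate 1 or 2, or trained 6 h replicate 2 or 3 (adjusted p 0.0568 to 0.0955), and Fos alone was lost without trained 0 h replicate 3 (adjusted p = 0.0583).

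**Figure D4:**
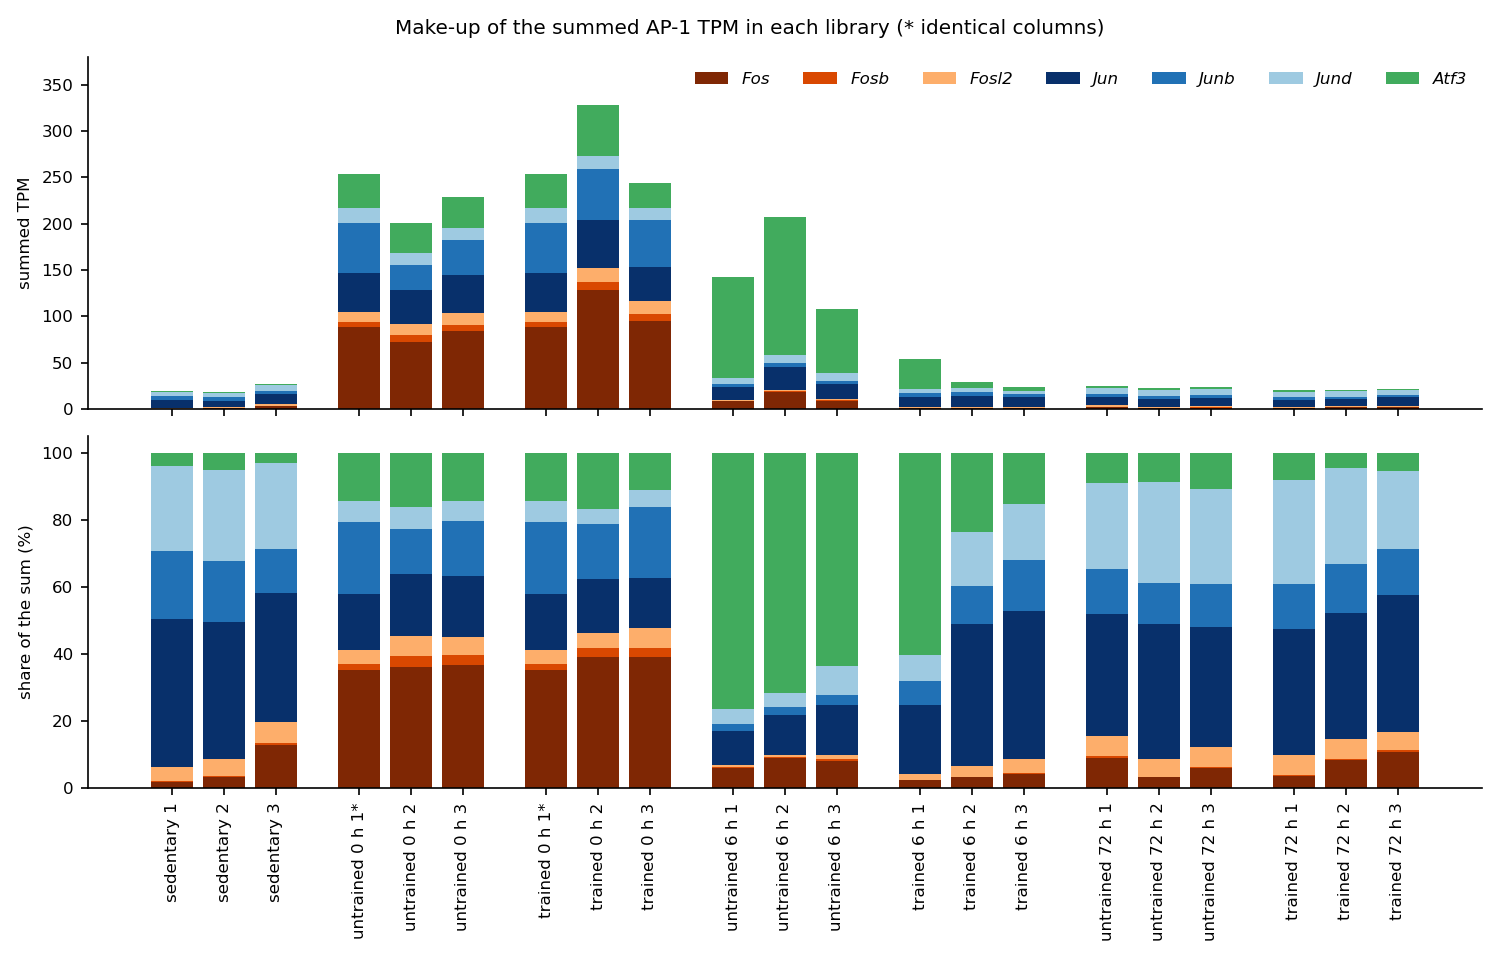
Summed TPM of the 7 members in each library (upper panel) and the share of each member in that sum in percent (lower panel), with asterisks on the 2 identical columns. The group means of the sum are highest at 0 h, where FOS and JUN groups hold similar shares, and Atf3 holds 63.7% to 76.6% in untrained but 15.2% to 60.3% in trained muscle at 6 h.

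At 72 h no member was called against sedentary muscle. In limma 0 of 7 members were called in untrained muscle, against 0.00846% of genes, and 0 of 7 in trained muscle, against 0.169%, with 0 members at an unadjusted p below 0.05 in either. The widest change was that of untrained Atf3, at 2.30, 1.97 and 2.62 TPM, all above the sedentary range. Its log2 fold change of 1.06 (95% interval -0.03 to 2.15) gave an adjusted p of 0.875. Trained Junb, at 2.73 to 2.88 TPM, lay wholly below the sedentary range of 3.33 to 3.84 TPM. Trained Jund and Atf3 lay wholly below their untrained 72 h libraries. How many of all tested genes separated in these ways at 72 h was not counted. Between training states 0 of 7 members were called by the same test, against 0.245% of genes, and 0 of 7 had an unadjusted p below 0.05. The 7 members summed to 23.9 ± 1.21 TPM (untrained) and 20.5 ± 0.723 TPM (trained), of which the JUN group again held 78.4% ± 3.98 and 80.2% ± 2.29.

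The order of the group means differed between members. Both 0 h groups hold the shared library, so with it they overlap for every member by construction. For Fos and Fosb trained 0 h was highest, then untrained 0 h, which did not overlap with it once the shared library was left out. Untrained 6 h came next, and the remaining 4 groups overlapped with their neighbours in the order. For Fosl2 and Junb the 0 h groups stood alone and the other 5 groups overlapped in sequence. For Jun the 0 h groups stood apart, then untrained 6 h at 18.5 ± 5.66 TPM, while trained 6 h at 11.3 ± 1.08 TPM lay above untrained 72 h but overlapped with sedentary muscle. Jund ran from the 0 h groups through untrained 6 h and untrained 72 h, which overlapped, to trained 72 h and sedentary muscle, which also overlapped, and trained 6 h stood alone at the lowest level, 4.31 ± 0.407 TPM. For Atf3 the order ran from untrained 6 h at 109 ± 40.0 TPM through trained 0 h and untrained 0 h to trained 6 h, untrained 72 h, trained 72 h and sedentary muscle. The libraries of both 0 h groups overlapped for Atf3 also without the shared one. Those of untrained 0 h overlapped with trained 6 h, and those of trained 72 h with sedentary muscle.

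The genes with the most similar patterns were found by the root mean square difference of the log2 fold changes over the 6 exercised groups. Nearest to Fos were Dnajb1, an HSP70 co-chaperone (0.53), and the immediate early factor Egr1 (0.58), then Slc25a25, a mitochondrial carrier (0.90). Egr1 had log2 fold changes of 4.93 in untrained and 5.23 in trained muscle at 0 h, and of 2.34 and -0.07 at 6 h. Atf3 had no close neighbour among the other members, with Fos nearest at 1.95, and lay closest to the inducible HSP70 gene Hspa1a (0.75), then Gm20481 (1.01) and Hspa1b (1.02). At 6 h Hspa1a was at 89.0, 150.5 and 107.6 TPM without training, against 8.74, 4.03 and 4.14 TPM with it. Replicate 2 of the untrained and replicate 1 of the trained 6 h group were the highest of their groups for both genes.

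Fosb and Junb were each other's nearest member (0.28), and Sik1, a salt-inducible kinase, was the nearest other gene to Fosb (0.28). Fosb was followed by Thbs1 (0.46) and Ier2 (0.46), and Junb had Apold1 (0.45), Sik1 (0.47) and Ier2 (0.49). Fosl2 was nearest to Ier2 (0.26), Nr4a1 (0.30) and Dusp1 (0.32). Jun was nearest to Gm16230 (0.25), the stress-responsive kinase Plk3 (0.26) and Gm20186 (0.28). Jund was nearest to Junos and Gm11175 (both 0.11), then to Rgs2 (0.17). Gm11175 shares its locus with Jund, so this likeness cannot be told apart from shared reads.

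Other bZIP relatives responded in part. Counts for this and the following gene lists stand against the shares of all tested genes called in either direction. These were 3.59% in untrained and 3.74% in trained muscle at 0 h, and 4.42% and 3.85% at 6 h. They were 2.01% between training states at 6 h and 0.651% for the difference of the step from 0 h to 6 h. Of 12 listed relatives 8 were tested, and 4 were called higher at 0 h in untrained muscle, led by the small MAF gene Maff (log2 fold change 2.25 ± 0.16), then Mafk (1.17 ± 0.15) and Jdp2 (1.09 ± 0.16). The fourth, Maf (0.61 ± 0.11), was below the 1.5-fold minimum without the shared library (0.53). The same 4 were called in trained muscle, where Maff reached 2.66 ± 0.16. At 6 h Maff (trained minus untrained) differed by -0.63 ± 0.16 (adjusted p = 0.0403). Fosl1, the FOS-group gene for FRA-1, missed the 1 TPM minimum and had its highest library at 1.60 TPM in untrained muscle at 6 h.

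The other immediate early genes moved with the family at 0 h. Of 16 listed symbols 13 were tested, and 12 were called higher in both training states, with a list median of 2.69 in untrained and 2.88 in trained muscle. Leading the list were the nuclear receptor gene Nr4a2 (6.37 ± 0.72 and 6.53 ± 0.72), Egr1 (4.93 ± 0.54 and 5.23 ± 0.54) and the antiproliferative gene Btg2 (3.81 ± 0.28 and 4.51 ± 0.28). At 6 h 7 of 13 were called higher in untrained muscle, led by Nr4a3 (3.65 ± 0.25), whereas in trained muscle Nr4a3 was called higher (1.78 ± 0.25) and Nr4a1 lower (-0.69 ± 0.21). At 6 h 6 of 13 were lower with training, led by Egr1 (-2.41 ± 0.54), Ccn1 (-2.03 ± 0.29) and Nr4a3 (-1.87 ± 0.25). Without the shared library in the model the counts at 6 h were 6 higher in untrained, 1 higher and 0 lower in trained muscle, and 5 lower between the training states. The change from 0 h to 6 h differed between training states for 4 of 13, or 2 without the shared library.

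Of 23 tested genes for MAP kinases, SRF, CREB and their partners, 2 were called in untrained and 1 in trained muscle at 0 h. Of all tested genes 3.59% and 3.74% were called, and the count in trained muscle was close to that share. Crem, which encodes inducible repressors of cAMP signalling, was called higher at 0 h (1.10 ± 0.19 in untrained and 1.23 ± 0.19 in trained muscle) and at 6 h (1.00 ± 0.19 and 1.30 ± 0.19). The ETS factor Elk3 was called lower in untrained muscle at 0 h (-0.61 ± 0.12). The list median at 0 h was 0.10 in both states, close to that of all genes. Of 13 tested genes listed for feedback phosphatases and RNA decay, 3 were called higher at 0 h in both states. These were Zfp36, whose protein binds AU-rich elements (2.68 ± 0.19 and 2.94 ± 0.19), the MAP kinase phosphatase gene Dusp1 (2.41 ± 0.23 and 2.83 ± 0.23), and Zfp36l1 (0.95 ± 0.13 and 1.03 ± 0.13). Dusp10 was called lower in trained muscle at 0 h (-0.74 ± 0.22), a call lost without the shared library (adjusted p = 0.0658). At 6 h Zfp36 was called higher in untrained muscle (0.88 ± 0.19) and none of the 13 in trained muscle (1 without the shared library).

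Of 18 listed AP-1 target genes 7 were tested. Metallothionein genes Mt2 and Mt1 were called higher at 0 h (2.53 ± 0.42 and 2.24 ± 0.28 in untrained muscle) and higher at 6 h (3.64 ± 0.42 and 3.09 ± 0.28). At 6 h the growth factor gene Hbegf (3.16 ± 0.20) and the haem oxygenase gene Hmox1 (1.62 ± 0.15) were also called in untrained muscle, and the same 4 genes in trained muscle. Between the training states at 6 h, Hbegf was at -1.95 ± 0.20 (trained minus untrained, adjusted p = 4.68e-05) and Hmox1 at -0.65 ± 0.15 (adjusted p = 0.0175).

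Of 7 tested genes of the ATF4 and integrated stress response, 3 were called higher at 0 h in both states, with Ddit4, an inhibitor of mTORC1, at 4.10 ± 0.31 in untrained and 4.26 ± 0.31 in trained muscle, followed by Cebpb (1.87 ± 0.21 and 2.13 ± 0.21) and Ppp1r15a (0.93 ± 0.16 and 1.04 ± 0.16). At 6 h 4 were called higher in untrained muscle, among them Atf4 itself (0.60 ± 0.12), and 2 in trained muscle. Ppp1r15a was the only gene of the list called between training states at 6 h, lower in trained muscle by 0.61 ± 0.16 (adjusted p = 0.0425). At 72 h none of the 6 gene lists held a called gene against sedentary muscle in limma.

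Some markers of other cells moved with some of these results. The 9 macrophage markers, of which 7 were tested, summed to 43.1 to 47.6 TPM in sedentary muscle, to 38.6, 81.1 and 63.9 TPM in untrained muscle at 6 h, and to 36.0, 37.3 and 52.4 TPM in trained muscle at 6 h. Cd68 and Csf1r were called higher in untrained muscle at 6 h (1.62 ± 0.20 and 0.61 ± 0.15), and the other 5 tested macrophage markers were not (list median 0.32). Both were called lower in trained 6 h muscle than in untrained 6 h muscle (-1.47 ± 0.20 and -0.78 ± 0.15), and the other 5 again were not called. In this same contrast 5 AP-1 members were lower. Adgre1, the defining macrophage marker F4/80, was at 0.366, 0.937 and 0.730 TPM at 6 h in untrained mice, against 0.344, 0.440 and 0.681 TPM in trained mice. Sedentary muscle had 0.665, 0.784 and 0.725 TPM, all within the untrained 6 h range. Single libraries did not all follow 1 order. Trained 6 h replicate 1 had the highest Atf3 of its group (32.5 TPM) but the lowest macrophage sum. Untrained 6 h replicate 1 had more Atf3 than replicate 3 (109 against 68.9 TPM) but a lower macrophage sum. Untrained 6 h replicate 2 had the highest Fos, Jun and Atf3 of its group and the highest macrophage sum. It also had the highest sum of 5 fibro-adipogenic markers (427 TPM, against 175 and 312 TPM). Of those 5 markers Ly6a was called higher in untrained muscle at 6 h (0.62 ± 0.13), and Col1a1 and Col3a1 were called lower in trained muscle at 6 h, with log2 differences of -0.91 ± 0.28 and -1.35 ± 0.36 against sedentary muscle and -1.46 ± 0.28 and -1.31 ± 0.36 against trained 0 h muscle. Col1a1 against sedentary muscle was not called without the shared library (adjusted p = 0.0665). Untrained Cd68 was still up at 72 h (1.53 ± 0.20), when no AP-1 member was called. At 0 h no macrophage marker was called, and the endothelial marker Kdr was lower in untrained (-0.66 ± 0.16) and trained muscle (-0.59 ± 0.16), in neither case called without the shared library. The part of these markers in the AP-1 results was not tested.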

How the data were processed

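Bulk RNA of mouse quadriceps was sequenced from TruSeq RNA v2 libraries, which do not mark the strand. Per the study's methods, the authors aligned reads to GRCm39 with STAR and quantified transcripts with Salmon 1.5.0. The sample records give the STAR version as 2.7.9. They deposited TPM per gene symbol, the values used here, with no counts. TPM summed to 997304 to 997921 per library, of which the mitochondrial genome held 37.7% to 48.0%, and the precision of single values is not known without depth.

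Values were taken as log2(TPM + 0.5), and the 11819 genes averaging 1 TPM or more were fitted with limma 3.58.1 (R 4.3.3, trend option). The model held the 7 groups and the 21 columns as deposited. Benjamini-Hochberg adjustment ran over all fitted genes, and calls needed an adjusted p under 0.05 together with a 1.5-fold change. The script was tested on simulated data. Because untrained and trained 0 h replicate 1 are the same values, the model was also fitted without them. Group means are given with the SD of 3 columns and fold changes with the SE of the fit. Positions, promoters and 3′ ends were read from GRCm39 with GENCODE M39.

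Members and gene lists were chosen with earlier results of these data known. The 7 members, up to 3 called genes of each list with the largest change per direction and comparison, and the 3 nearest patterns per member were named. Maf, Hmox1 and Atf4 (with smaller changes), Fosl1 and the markers Csf1r, Cd68, Kdr and Adgre1 were named after their values were seen, as were the markers Ly6a, Col1a1 and Col3a1. Alternatives were other pseudocounts, filters, scalings and variance settings, only the groups compared, a replicate block, and leaving out single libraries. The result of 1 listed gene is not reported here.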

Additional observations from a re-analysis of the deposited data

Results flagged for a closer look

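The difference between trained and untrained muscle at 6 h passed the test for 5 members. Trained minus untrained on the log2 scale was -2.93 for Fos, -0.75 for Fosb, -0.65 for Jun, -0.81 for Jund and -3.38 for Atf3. The calls of Fosb and Jun were lost when most single libraries of these groups were left out. The change from 0 h to 6 h differed between training states by -3.26 for Fos and -3.54 for Atf3 in the test of that difference, and both calls were lost with the library common to both 0 h groups left out.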

How the results depend on the processing

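The counts of called members at 0 h (7 in each training state), at 72 h (0), between training states at 0 h (0) and from 0 h to 6 h in untrained muscle stayed within 1.5 times under every alternative run. With only the compared groups in the model, 1 member was called in untrained and 0 in trained muscle at 6 h against sedentary muscle, 0 between training states at 6 h, and 1 for the difference of the step from 0 h to 6 h. The untrained step then kept 4 of 6 calls, losing Jun (adjusted p = 0.0653) and Jund (0.0914), and the trained step lost Atf3 (0.164). The adjusted p was then 0.120 for Fos in untrained and 0.116 for Atf3 in trained muscle at 6 h, and 0.0513 and 0.225 for Fos and Atf3 between training states. The difference of the step gave 1 member with a pseudocount of 0.1, 0 with no filter, and 0 when the shared library was dropped from both 0 h groups, or kept in untrained or in trained muscle alone. Fosb at 6 h in untrained muscle went from 0.62 to -0.053 under quantile normalization. The cause was not tested.

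Leaving out single libraries gave 3 to 5 called members between training states at 6 h, 3 to 5 in untrained muscle at 6 h, 6 to 7 for the trained step from 0 h to 6 h, and 0 to 3 for the difference of that step. Same-numbered libraries correlated between -0.0890 and 0.0912 in their deviations, and differently numbered ones between -0.126 and 0.126. Pairing by replicate number was thus not seen, though groups this small cannot exclude it. With a replicate block the difference of the step gave 1 member (Fos adjusted p = 0.0501), Jun between training states at 6 h had an adjusted p of 0.0504, and Atf3 from 0 h to 6 h in untrained muscle was called (0.0499). The last also passed with a pseudocount of 1 (0.0472), median-of-ratios scaling (0.0471) and quantile normalization (0.0489). A minimum of 5 TPM left out Fosb and Fosl2. Median-of-ratios scaling moved the median of all genes from -0.15 to -0.01 for the trained step from 0 h to 6 h. Depth is unknown, so the values of Fosb below 1 TPM have no known counting error.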
